A study of Mus musculus with 6 samples.

Results

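The genes described here run the protein-folding machinery of the endoplasmic reticulum (ER). They comprise ER chaperones and disulphide isomerases, the sensors of the unfolded protein response, components of ER-associated degradation (ERAD) and subunits of the translocon. The list has 36 genes, taken by symbol from the 21958 gene rows with values in the deposited table, and 35 of them had enough reads to be tested. The cells were RAW264.7, a mouse line with macrophage properties, and the RNA-seq libraries formed 2 groups of 3 that the titles call biological replicates. The first group comprised cells that received lipopolysaccharide (LPS), a bacterial cell wall component that activates macrophages, and were co-cultured with BMSCs, by usual abbreviation bone marrow stromal cells; the second group received LPS alone. All 6 libraries therefore carry LPS, and every difference below is between co-culture with LPS and LPS alone. The design text describes a printed polycaprolactone (PCL) scaffold loaded with BMSCs and the growth factor bFGF, whereas the sample labels name only BMSCs. The species of the BMSCs, their contact with the macrophages, the LPS dose and the times are all left unstated by the labels. For LPS replicate 3 the title reads RAW264.9 and the tag RAW264.7; the library stayed in the LPS group.

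As background, secreted and membrane proteins enter the ER through the SEC61 channel and are folded there by Hsp70 and Hsp90 chaperones, by the lectins calreticulin and calnexin and by disulphide isomerases. When unfolded protein accumulates, IRE1 (Ern1) splices Xbp1 mRNA, PERK (Eif2ak3) slows translation and favours ATF4, and ATF6 is cleaved to a transcription factor; together they induce chaperone and ERAD genes. ERAD returns misfolded proteins to the cytosol for the proteasome, and in macrophages this system serves the large load of cytokines and surface receptors made after LPS. Splicing of Xbp1, phosphorylation of PERK and cleavage of ATF6 are not visible in counts per gene.

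Most of the folding and degradation genes were higher in co-culture, while the genes of the 3 stress sensors were lower. The translocon genes went both ways, with 2 higher and 2 lower. Of the sensors, Eif2ak3 was also lower after the correction for gene length described below, and Ern1 and Atf6 were not. Of the 35 tested members, 22 were higher (62.9%) and 10 lower (28.6%) in co-culture, with edgeR's quasi-likelihood test and a Benjamini-Hochberg adjusted p of 0.05 over all genes; across all 11103 tested genes 37.5% were higher and 38.0% lower. The median log2 fold change was 0.34 over the tested members and 0.001 over all tested genes. The groups did not overlap in scaled read counts (CPM) for 34 of the 35 members (97.1%), compared with 80.2% of all tested genes. Changes were mostly moderate: the change reached 1.5-fold in 12 of the higher members and in 2 of the lower ones, and only Herpud1 and Manf passed 2-fold. The remaining member, Derl3, a derlin of secretory cells, had 3, 3 and 3 reads in co-culture and 1, 0 and 2 reads with LPS alone, at or under the floor of 3 reads, and was not tested. The plot of the members by library shows the 3 co-culture libraries of most genes grouped on one side of the LPS libraries.

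**Figure D1:**
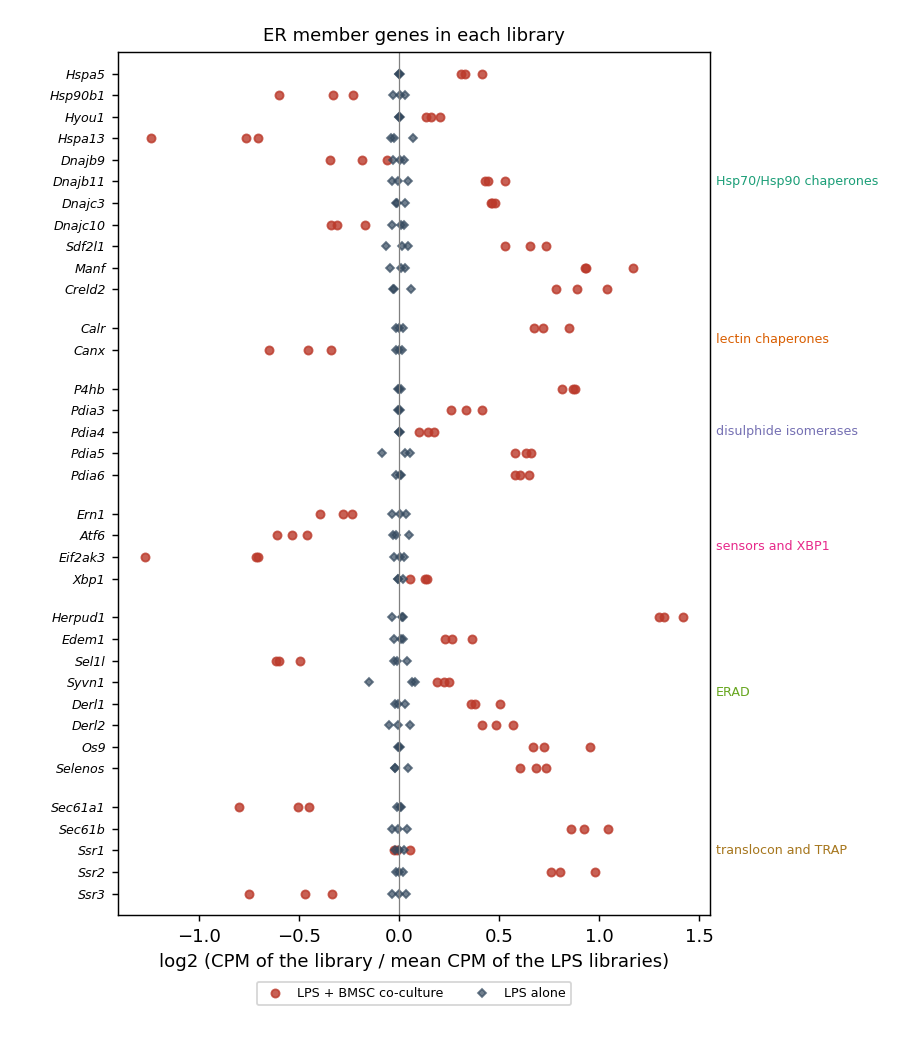
Each row is a member gene; points give the log2 ratio of each library's CPM to the mean CPM of the LPS libraries (circles, 3 co-culture libraries; diamonds, 3 libraries with LPS alone). Only in Ssr1 do the groups overlap, and Herpud1 lies farthest to the right.

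Total counts ran from 19720727 to 21964252 in the co-culture libraries and from 17716460 to 22539884 in the LPS libraries, so 3 reads correspond to 0.125 to 0.160 CPM on the TMM scale. Co-culture replicate 1 stood apart from the other co-culture libraries, with a chi-square per degree of freedom of 15.8 and 26.8 against them, compared with 5.16 between the other co-culture pair and 1.71 to 2.11 among the LPS libraries. It held the highest co-culture value in 17 of the 22 higher members and the lowest in all 10 lower members, a count not made over all tested genes. Without this library 23 members were higher and 10 lower (median 0.35). Of 17 stromal cell markers, 6 (Col1a2, Col3a1, Col6a1, Col6a2, Thy1 and Cxcl12) had no read in any library, 10 stayed under 3 reads in every library and 4 were expressed enough to test. Their summed level was 21.96 to 24.75 CPM with co-culture, compared with 15.53 to 18.04 CPM in the LPS libraries, most of it from Acta2, a smooth muscle actin (20.4, 17.5 and 16.95 CPM against 10.8, 9.7 and 9.98 CPM). By TMM, Acta2 was the only stromal marker called higher (log2 fold change 0.85). Lum (-1.41, edgeR adjusted p 0.0111) and Runx2 (-0.48, edgeR adjusted p 0.0253) were lower and Dcn (-0.03) was not called. After the trend correction described below, Acta2 (0.49) and Dcn (0.59, edgeR adjusted p 0.0324) were higher, Lum was lower (-1.36) and Runx2 was not called (-0.197). Of 10 macrophage markers 9 were tested, and their sum was 25810 to 28600 CPM with co-culture, compared with 16640 to 17060 CPM in the LPS libraries, most of it from Lyz2 and Cd14. Of the 9, Lyz2, Cd14, Cd68, Fcgr3 and Spi1 were higher by TMM, Ptprc was lower (-0.93, edgeR adjusted p 1.69e-05), and Adgre1 (0.01), Csf1r (0.01) and Itgam (0.03) were not called; after the trend correction described below Cd68 was lower (-0.23) and Ptprc not called (0.03). The part of these markers in the members' values was not tested. In bulk RNA, fewer cells of a type and less RNA per cell cannot be told apart.

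Fold changes also followed gene length across the whole table. Genes shorter than 3000 bases had a median log2 fold change of 0.49 (3066 genes, 63.5% higher and 11.8% lower), those of 3000 to 6000 bases 0.01 (4466 genes), and those of 6000 bases or more -0.45 (3571 genes, 16.1% higher and 63.2% lower). The 12 tested members under 3000 bases had a median of 0.77, with 11 higher and 0 lower; the 13 of middle length had 0.34, with 8 higher and 4 lower; and the 10 longest had -0.42, with 3 higher and 6 lower. A second fit took out, in each library, a smooth trend with gene length and GC content. In that fit 18 members were higher (51.4%) and 8 lower (22.9%), against 35.4% and 36% of all tested genes, and the member median was 0.20 (-0.01 for all genes). Values from this fit are called trend-corrected below. What produced the length trend was not tested.

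**Figure D2:**
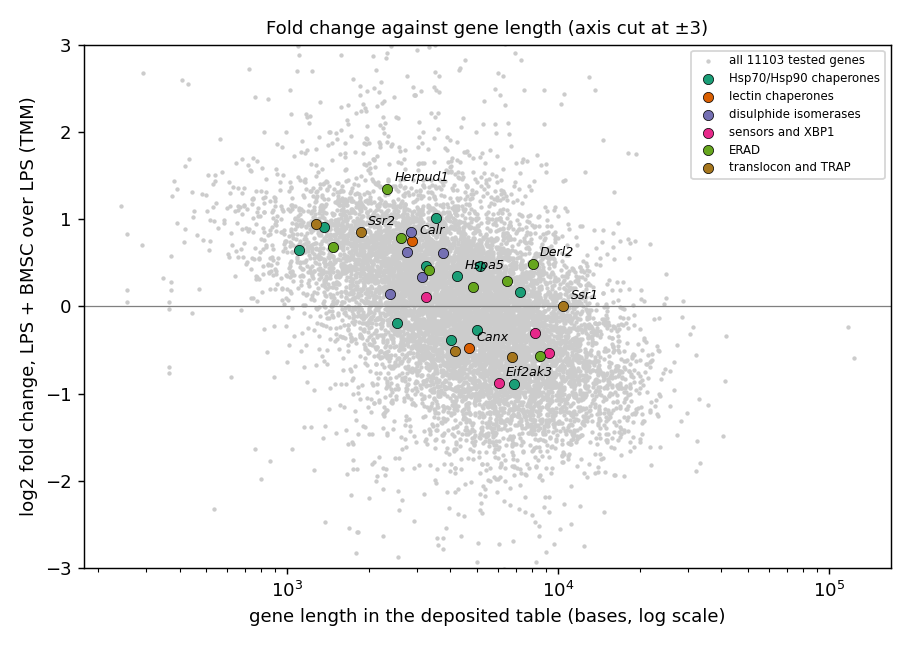
Log2 fold change (co-culture over LPS, TMM scale) against gene length on a log axis for all 11103 tested genes (grey) and the 35 tested members (coloured by role); 85 genes lie beyond the plotted range of 3 log2 units either way. Short genes lie mostly above 0 and long genes mostly below, with Derl2, Ssr1 and Herpud1 near the upper side of the cloud at their lengths.

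With library totals in place of TMM scaling, the median of all tested genes moved to -0.18 and that of the members to 0.16, with 18 members higher and 12 lower. Of the members, 15 were higher by TMM, after trend correction, with library totals and on FPKM: Hspa5, Dnajb11, Dnajc3, Manf, Calr, P4hb, Pdia3, Pdia5, Pdia6, Herpud1, Derl1, Derl2, Os9, Selenos and Ssr2. Another 6 were lower by all 4 measures, namely Hspa13, Canx, Eif2ak3, Sel1l, Sec61a1 and Ssr3. For the other 14 tested members at least 1 of these measures gave a different call. FPKM is also scaled by library total and gave every tested member the same call as library totals, so it is not a separate check.

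Among the 11 Hsp70 and Hsp90 chaperones and their partners, 7 were higher and 3 lower (median log2 fold change 0.35), and 5 were higher and 2 lower after trend correction (median 0.12). Hspa5 encodes BiP, the main ER Hsp70 and a repressor of all 3 sensors, and lies on chromosome 2 from 34771970 to 34777547 in GRCm38 (ENSMUSG00000026864). It stood at 1799, 1825 and 1940 CPM in co-culture, against 1455, 1455 and 1457 CPM with LPS alone. All 3 co-culture libraries were above the LPS libraries, which hardly differed from each other (log2 fold change 0.35, SE 0.05, edgeR adjusted p 0.00013), and the trend-corrected value was 0.53. Hsp90b1, the ER Hsp90 known as GRP94, needed for Toll-like receptors and integrins, went the other way, at 469, 565 and 605 CPM in co-culture, against 725, 696 and 711 CPM with LPS alone. Its groups were separate (log2 fold change -0.38, SE 0.09, edgeR adjusted p 0.00238), yet after trend correction it was near 0 (-0.09, edgeR adjusted p 0.141). The ratio of Hspa5 to Hsp90b1 in deposited FPKM was 3.66, 3.08 and 3.06 in co-culture and 1.91, 1.99 and 1.95 with LPS alone, so that all 3 co-culture ratios were above the LPS ratios.

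Dnajc3 and Dnajb11 are J-domain co-chaperones of BiP, Dnajc3 being also an inhibitor of PERK. Dnajc3 had 165, 163 and 163 CPM in co-culture, against 121, 117 and 118 CPM with LPS alone. The co-culture libraries agreed closely and lay above all LPS libraries (log2 fold change 0.47, SE 0.05, edgeR adjusted p 1.54e-05), and its trend-corrected value was 0.84. Dnajb11 had 356, 333 and 336 CPM in co-culture, against 246, 254 and 241 CPM with LPS alone (log2 fold change 0.47, SE 0.05, edgeR adjusted p 2.51e-05; trend-corrected 0.26), again without overlap. The J-domain protein Dnajb9, which restrains IRE1, did not pass, at 27.4, 30.6 and 33.4 CPM in co-culture, against 35.5, 34.96 and 34.1 CPM with LPS alone (log2 fold change -0.20, edgeR adjusted p 0.0543). Nor did it pass after trend correction (-0.08, edgeR adjusted p 0.244). It passed as lower with library totals (-0.37, edgeR adjusted p 0.00425) and without co-culture replicate 3 (-0.26, edgeR adjusted p 0.0112). Dnajc10, a disulphide reductase with a J domain, had 170.3, 174 and 192 CPM in co-culture, against 219, 217 and 211 CPM with LPS alone. It was lower without overlap (log2 fold change -0.27, SE 0.06, edgeR adjusted p 0.00189), but trend correction brought it to 0.02.

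The remaining Hsp70-class genes diverged. Hspa13, an Hsp70-like ATPase of microsomes, had 25.6, 35.6 and 37.1 CPM in co-culture, against 63.5, 59.4 and 58.8 CPM with LPS alone. All co-culture libraries were lower (log2 fold change -0.89, SE 0.12, edgeR adjusted p 9.01e-05), and the trend-corrected log2 fold change was smaller, at -0.27 (edgeR adjusted p 0.00859). Hyou1, a large Hsp70-family nucleotide exchange factor for BiP, had 428, 437 and 449.7 CPM in co-culture, against 389.9, 392 and 391 CPM with LPS alone. These CPM did not overlap (log2 fold change 0.17, SE 0.05, edgeR adjusted p 0.0115), and the trend-corrected value was 0.28 (edgeR adjusted p 8.45e-05). With library totals, however, the value was -0.01, and the TMM call was lost when any LPS library was left out (edgeR adjusted p 0.0553 to 0.0604).

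Manf, Creld2 and Sdf2l1 are small ER proteins that many stressed cells induce or secrete, Sdf2l1 being a partner of the BiP cycle. Manf (ENSMUSG00000032575), on chromosome 9 from 106838312 to 106891979, had 354, 299 and 300.4 CPM in co-culture, against 158, 161 and 152 CPM with LPS alone. It was 2.02-fold higher with no overlap (log2 fold change 1.02, SE 0.07, edgeR adjusted p 2.02e-06; trend-corrected 0.83), and its rank by mean FPKM among the 36 members was 14 in co-culture and 20 with LPS alone. Its exons share 166 bases with an antisense transcript and 146 bases with Dcaf1 on the opposite strand, and since no strand setting is stated, reads there cannot be told apart. Creld2 had 306, 257 and 276 CPM in co-culture, against 147, 155 and 146 CPM with LPS alone, a rise (log2 fold change 0.91, SE 0.07, edgeR adjusted p 2.88e-06) that did not pass after trend correction (0.12, edgeR adjusted p 0.057). Sdf2l1, the shortest member at 1108 bases, had 237, 224 and 206 CPM in co-culture, against 144, 147 and 136 CPM with LPS alone. Its TMM value was 0.64 (SE 0.07) and its trend-corrected value -0.29 (edgeR adjusted p 0.000281), so its direction depended on the length and GC correction.

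The lectin chaperones Calr (calreticulin, soluble) and Canx (calnexin, its membrane-bound relative), which hold glycoproteins carrying a single glucose, moved in opposite directions. Calr (ENSMUSG00000003814, chromosome 8 from 84841850 to 84846934) was the most abundant member per length in both groups, at 1005 ± 40.7 FPKM in co-culture and 677 ± 7.28 FPKM with LPS alone (SD, n = 3 each). It had 3299, 3017 and 2926 CPM in co-culture, against 1829, 1813 and 1856 CPM with LPS alone, and every co-culture library was higher (log2 fold change 0.75, SE 0.06, edgeR adjusted p 2.66e-06; trend-corrected 0.51). A processed pseudogene of Calr is annotated on chromosome 2, and the labels do not state how its reads were assigned. Canx (ENSMUSG00000020368, chromosome 11 from 50293961 to 50325673) had 719, 825 and 892 CPM in co-culture, against 1129, 1118 and 1141 CPM with LPS alone. Every co-culture library was lower (log2 fold change -0.48, SE 0.08, edgeR adjusted p 0.000233), by less after trend correction (-0.11, edgeR adjusted p 0.032). The Calr to Canx ratio in FPKM was 7.48, 5.96 and 5.34 in co-culture, against 2.64, 2.64 and 2.65 with LPS alone. The LPS ratios were nearly equal and all co-culture ratios were above them, with replicate 1 the highest.

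The ER stress response element (ERSE), to which ATF6 binds with the CCAAT factor NF-Y, consists of CCAAT and CCACG separated by 9 bases. It was searched on both strands of the RefSeq promoter windows (GRCm38.p6, 250 bases before to 50 after the RefSeq start of the gene), where 29 of the 36 members had a window. The element occurred in 9 of these members and in 39 of all 32851 windows (0.119%), or 0.132% of the windows of tested genes. The first count is of genes and the others are of windows, among them those of the members. Enrichment was not tested. The members with it were Calr, Canx, Creld2, Derl3, Dnajc3, Hsp90b1, Hspa5, Pdia6 and Syvn1, of which 6 were higher, 2 lower and 1 not tested by TMM, and 4 higher (Calr, Dnajc3, Hspa5 and Pdia6), 1 lower (Canx) and 3 not called after trend correction. Across all tested genes, as given above, 37.5% were higher and 38.0% lower by TMM, and 35.4% and 36% after trend correction. The stretches below are shown because genes that were higher by TMM (the first 4) and genes that were lower (the last 2) carry the same pair of motifs; the capitals mark CCAAT and CCACG, and each is written on the strand where it reads in this order.
Hspa5, chr2:34772005-34772063, plus strand: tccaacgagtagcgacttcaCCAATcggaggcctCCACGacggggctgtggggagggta
Calr, chr8:84847055-84847113, plus strand: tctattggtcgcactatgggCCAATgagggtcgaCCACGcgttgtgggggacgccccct
Pdia6, chr12:17266471-17266529, plus strand: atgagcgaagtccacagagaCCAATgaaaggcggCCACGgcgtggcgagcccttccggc
Dnajc3, chr14:118937807-118937865, plus strand: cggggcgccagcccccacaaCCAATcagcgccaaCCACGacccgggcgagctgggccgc
Hsp90b1, chr10:86705618-86705676, minus strand: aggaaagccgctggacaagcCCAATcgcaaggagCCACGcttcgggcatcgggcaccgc
Canx, chr11:50325780-50325838, minus strand: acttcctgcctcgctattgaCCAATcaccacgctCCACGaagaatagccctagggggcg

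The element began 65 bases before the RefSeq start of Hspa5 (34772090, downstream of the annotated gene start given above) and 145 bases before that of Canx, and Hsp90b1 held a second copy beginning 107 bases before its start. The XBP1 and ATF6 core TGACGTGG was in 0.676% of all windows and in 0 member windows. A match describes letters only, and a missing match says only that these letters were not in that window.

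All 5 disulphide isomerases, which form and rearrange cysteine bonds in new proteins, were higher in co-culture (median 0.61), 4 of them also after trend correction (median 0.30). Of all tested genes, 37.5% were higher by TMM and 35.4% after trend correction. The median length of the 5 was 2861 bases, and 63.5% of all tested genes shorter than 3000 bases were higher by TMM. P4hb, the classical PDI and also a subunit of collagen prolyl hydroxylase, had 2761, 2636 and 2746 CPM in co-culture, against 1500, 1493 and 1513 CPM with LPS alone. The replicates were tight in both groups and far apart between them (log2 fold change 0.85, SE 0.05, edgeR adjusted p 5.52e-07; trend-corrected 0.47). Pdia6, which limits IRE1 and PERK signalling, had 835, 796 and 809.7 CPM in co-culture, against 536, 535 and 528 CPM with LPS alone. The groups were well separated (log2 fold change 0.61, SE 0.05, edgeR adjusted p 3.25e-06), and the trend-corrected value was almost the same (0.56). Pdia3, the isomerase that works with calreticulin and calnexin and in the MHC class I loading complex, had 1866, 1770 and 1972 CPM in co-culture, against 1474, 1481 and 1486 CPM with LPS alone. Its co-culture libraries were all higher but more spread (log2 fold change 0.34, SE 0.05, edgeR adjusted p 0.00027; trend-corrected 0.30). Pdia5 was less abundant, at 31.6, 31.03 and 29.9 CPM in co-culture, against 18.8, 20.4 and 20.8 CPM with LPS alone, and rose without overlap (log2 fold change 0.62, SE 0.07, edgeR adjusted p 3.35e-05; trend-corrected 0.23). Pdia4 had 283, 292 and 297 CPM in co-culture, against 264, 264 and 264 CPM with LPS alone, a small TMM difference (log2 fold change 0.14, SE 0.05, edgeR adjusted p 0.0253) whose sign turned with library totals (-0.04) and after trend correction (-0.07). Its call was also lost without co-culture replicate 2 and when any 1 of the LPS libraries was left out (edgeR adjusted p 0.06 to 0.0988).

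Of the genes for the 3 sensors and for XBP1, none rose: 3 were lower and 1 did not pass (median -0.42; trend-corrected -0.13, with 2 lower). By TMM, 38.0% of all tested genes were lower. Ern1, Atf6 and Eif2ak3 are long genes, at 8173, 9231 and 6026 bases. Among all tested genes of 6000 bases or more, 63.2% were lower by TMM and 16.1% higher. A fall in these 3 genes by TMM was therefore common for their length. Eif2ak3, encoding the kinase PERK (ENSMUSG00000031668, chromosome 6 from 70844515 to 70905245), had 6.77, 9.93 and 10.02 CPM in co-culture, against 16.02, 16.6 and 16.4 CPM with LPS alone. It was the least abundant tested member, and the co-culture libraries were all lower, replicate 1 lowest of all (log2 fold change -0.88, SE 0.14, edgeR adjusted p 0.000222). The trend-corrected value was close, at -0.81 (edgeR adjusted p 0.000152). Atf6 had 94.8, 100 and 106 CPM in co-culture, against 143, 142 and 149.9 CPM with LPS alone. Its groups were separate (log2 fold change -0.53, SE 0.06, edgeR adjusted p 2.07e-05), whereas the trend-corrected value was -0.02 (edgeR adjusted p 0.687). Ern1, encoding IRE1, had 28.2, 30.5 and 31.5 CPM in co-culture, against 36.1, 37.2 and 37.9 CPM with LPS alone. The co-culture libraries were all lower (log2 fold change -0.30, SE 0.07, edgeR adjusted p 0.00305), and it too was not called after trend correction (-0.07, edgeR adjusted p 0.319). Xbp1 had 158, 167 and 168 CPM in co-culture, against 152, 152 and 154 CPM with LPS alone. Its co-culture libraries were slightly above the LPS libraries without passing (log2 fold change 0.11, SE 0.05, edgeR adjusted p 0.0821), it passed without co-culture replicate 1 (0.14, edgeR adjusted p 0.00336), and it was lower after trend correction (-0.19, edgeR adjusted p 0.00681).

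In ERAD, 7 of 8 tested members were higher and 1 lower (median 0.45; trend-corrected 0.29, with 6 higher and 1 lower). Herpud1 (ENSMUSG00000031770, chromosome 8 from 94386438 to 94395377), a membrane scaffold that recruits the HRD1 ubiquitin ligase complex, had 177, 166 and 163 CPM in co-culture, against 67.3, 66.9 and 64.7 CPM with LPS alone. It was the member with the largest fold, 2.55 times higher and with no overlap (log2 fold change 1.35, SE 0.06, edgeR adjusted p 1.15e-07; trend-corrected 0.88), and ranked 17 by FPKM among the members in co-culture and 25 with LPS alone. Its promoter window held ERSE-II (ATTGG and CCACG, 1 base apart; in 12 of 32851 windows, 0.0365%), as did that of Dnajb11. Herpud1 was also the only member with the core of the ATF4 element, TGATG and AA with 1 base between them (in 3.97% of all windows and 2.36% of those of tested genes). This stretch, on the plus strand, is shown because both motifs lie within it; the capitals mark the ATF4 core, here in reverse complement, and then the ERSE-II parts.
Herpud1, chr8:94386297-94386407: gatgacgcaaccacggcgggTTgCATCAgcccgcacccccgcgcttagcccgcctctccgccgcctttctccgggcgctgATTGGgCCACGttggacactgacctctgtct

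Syvn1 encodes HRD1, the ubiquitin ligase itself, and Sel1l its partner and stabiliser. Sel1l had 129, 130.3 and 140.1 CPM in co-culture, against 203, 196 and 194 CPM with LPS alone. The co-culture libraries were all lower (log2 fold change -0.57, SE 0.06, edgeR adjusted p 9.03e-06; trend-corrected -0.17, edgeR adjusted p 0.0046). Syvn1 had 47.2, 46.4 and 45.3 CPM in co-culture, against 35.8, 41.5 and 41.9 CPM with LPS alone, a narrow gap (log2 fold change 0.22, SE 0.08, edgeR adjusted p 0.0239) that was near 0 with library totals (0.04) and after trend correction (0.04). Its call was lost without LPS replicate 1 (0.15, edgeR adjusted p 0.125) and without co-culture replicate 2 (0.22, edgeR adjusted p 0.0585). Os9, a lectin that hands misfolded glycoproteins to this complex, had 237, 203 and 195 CPM in co-culture, against 122, 123 and 123 CPM with LPS alone, with co-culture replicate 1 highest and all 3 above the LPS libraries (log2 fold change 0.79, SE 0.07, edgeR adjusted p 8.2e-06; trend-corrected 0.30). Selenos, a selenoprotein that links derlins to the p97 ATPase, had 119, 126 and 130.1 CPM in co-culture, against 76.9, 80.6 and 76.9 CPM with LPS alone. No co-culture library reached down to the LPS range (log2 fold change 0.68, SE 0.06, edgeR adjusted p 4.3e-06; trend-corrected 0.22).

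The derlins, membrane proteins through which ERAD clients leave the ER, were both higher. Derl1 had 246, 222 and 225 CPM in co-culture, against 177, 173 and 171 CPM with LPS alone. Its lowest co-culture value was above its highest LPS value (log2 fold change 0.42, SE 0.06, edgeR adjusted p 8.66e-05; trend-corrected 0.28). Derl2 had 148, 133 and 139 CPM in co-culture, against 103, 96.3 and 99.3 CPM with LPS alone, also without overlap (log2 fold change 0.49, SE 0.06, edgeR adjusted p 4.25e-05), and its trend-corrected value, 1.09, was the highest of any member. It shares 231 exonic bases with Mis12 on the opposite strand, and Eif2ak3, Hsp90b1 and Ssr2 share 485, 415 and 239 exonic bases with opposite-strand transcripts or pseudogenes, so reads there are less certain. Edem1, a mannosidase-like protein that extracts glycoproteins from the folding cycle, had 349, 319 and 326 CPM in co-culture, against 273, 275 and 267 CPM with LPS alone. Its co-culture libraries were higher (log2 fold change 0.29, SE 0.05, edgeR adjusted p 0.000806; trend-corrected 0.64), and with library totals it did not pass (0.11, edgeR adjusted p 0.0768).

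The translocon and its associated TRAP complex had 2 genes higher, 2 lower and 1 not called (median 0.01; trend-corrected 0.09 with the same counts), or 40% each way, close to the 37.5% and 38.0% of all tested genes. Sec61a1, the pore-forming subunit, had 124, 152 and 158 CPM in co-culture, against 217, 214 and 217 CPM with LPS alone. It was lower in every co-culture library (log2 fold change -0.58, SE 0.08, edgeR adjusted p 0.000129), with a trend-corrected value of -0.54, and 549 of its exonic bases overlap an antisense transcript. Sec61b, a small subunit of the same channel, had 164, 151 and 144 CPM in co-culture, against 81.8, 77.7 and 79.3 CPM with LPS alone. It was higher by TMM (log2 fold change 0.94, SE 0.06, edgeR adjusted p 1.37e-06) and near 0 after trend correction (0.09, edgeR adjusted p 0.125). The Sec61b to Sec61a1 ratio in FPKM was 7.0, 5.26 and 4.84 in co-culture and 2.0, 1.92 and 1.94 with LPS alone, with no overlap.

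Ssr1, Ssr2 and Ssr3 encode the alpha, beta and gamma subunits of TRAP, which assists the entry of some signal sequences. Ssr2 had 406, 360.2 and 349 CPM in co-culture, against 205, 209 and 206 CPM with LPS alone, higher without overlap (log2 fold change 0.85, SE 0.07, edgeR adjusted p 2.74e-06; trend-corrected 0.20). Ssr3 had 220.3, 268 and 294 CPM in co-culture, against 379.7, 363 and 372 CPM with LPS alone, lower without overlap (log2 fold change -0.51, SE 0.09, edgeR adjusted p 0.000594; trend-corrected -0.16, edgeR adjusted p 0.0182). Ssr1, the longest member at 10431 bases, had 431, 435 and 455 CPM in co-culture, against 446, 432 and 439 CPM with LPS alone. These ranges overlapped (log2 fold change 0.01, SE 0.05, edgeR adjusted p 0.922), while the value was -0.17 with library totals (edgeR adjusted p 0.0144) and 0.63 after trend correction (edgeR adjusted p 6.38e-07). The Ssr2 to Ssr3 ratio in FPKM was 4.13, 3.01 and 2.65 in co-culture and 1.21, 1.29 and 1.24 with LPS alone. Here too every co-culture ratio was the higher one. In Sec61b with Sec61a1, Ssr2 with Ssr3 and Calr with Canx, the shorter gene was the one that rose. In Hspa5 with Hsp90b1, at 4229 and 4032 bases, it was the longer one.

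**Figure D3:**
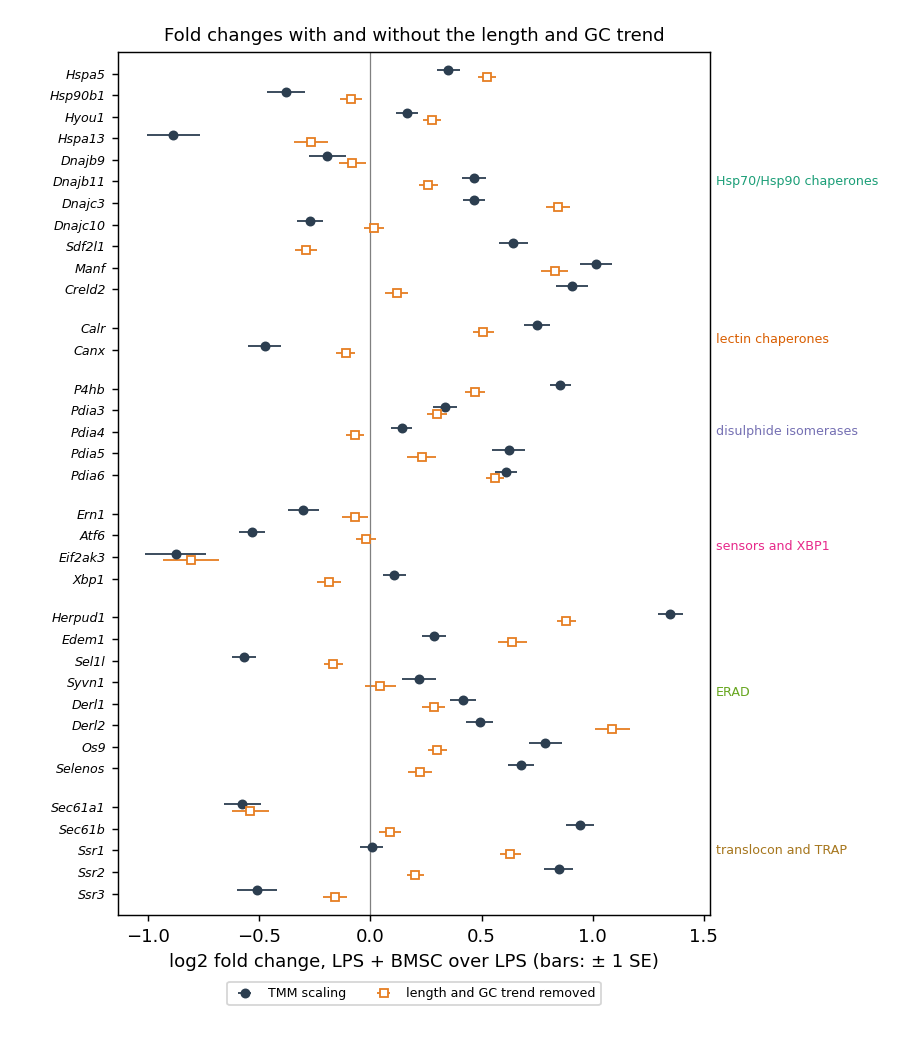
Log2 fold change (co-culture over LPS) of the 35 tested members with TMM scaling (filled circles) and after removal of the length and GC trend (open squares), with bars of 1 SE. Herpud1 has the largest TMM value (1.35) and Derl2 the largest trend-corrected value (1.09), and Sdf2l1 changes sign between them.

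Per length, the order of the members was similar in both groups at the top. Calr, P4hb, Pdia3 and Hspa5 held ranks 1 to 4 in each group by mean FPKM, and together made up 57.1%, 56.5% and 56.9% of the members' summed FPKM in co-culture and 51.5%, 51.5% and 52.0% with LPS alone. P4hb averaged 892 ± 18.5 FPKM in co-culture and 558 ± 3.03 FPKM with LPS alone, and Pdia3 559.9 ± 32.9 FPKM in co-culture and 502 ± 1.77 FPKM with LPS alone. Further down, Canx ranked 9 in co-culture and 5 with LPS alone, Hsp90b1 10 and 6, and Ssr3 19 and 12. Eif2ak3 was last of the tested members in both groups, at 1.39 ± 0.318 FPKM in co-culture and 2.88 ± 0.0527 FPKM with LPS alone. All 36 members together took 1.57%, 1.60% and 1.65% of counts in co-culture and 1.40%, 1.40% and 1.40% with LPS alone; of summed FPKM they took 1.38%, 1.42% and 1.47% in co-culture and 1.37%, 1.36% and 1.37% with LPS alone.

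**Figure D4:**
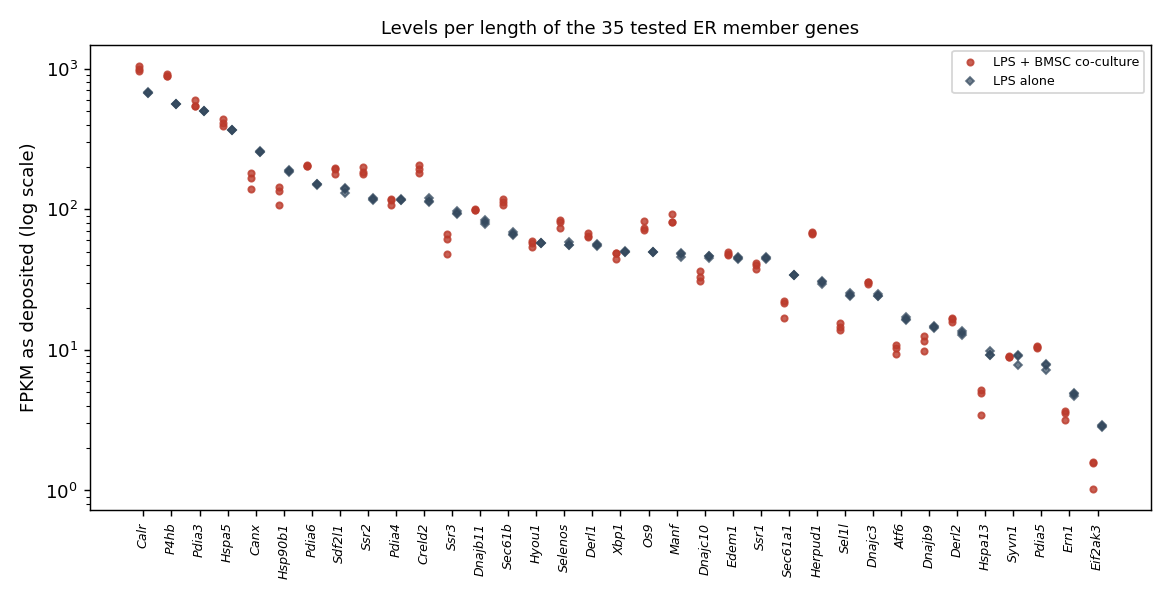
Deposited FPKM of the 35 tested members on a log axis, ordered by the mean of the LPS libraries (circles, co-culture; diamonds, LPS alone). Calr is highest and Eif2ak3 lowest in both groups, and the levels of the members span from 1.39 to 1005 FPKM in the co-culture means.

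Other genes of the pathway were taken from 8 lists holding 135 tested genes in all. By TMM 76 of them rose (56.3%) and 39 fell (28.9%), against 37.5% and 38.0% of all tested genes. After trend correction 80 rose (59.3%) and 36 fell (26.7%), against 35.4% and 36% of all tested genes. The median log2 fold change of the 135 genes was 0.33 by TMM and 0.28 after trend correction. Among PERK effectors and ATF4 targets, 11 of 12 genes were higher and 1 lower (median 1.80; trend-corrected 1.47, with the same counts), while Eif2ak3, the gene of PERK itself, was lower. Atf4, the transcription factor translated when PERK is active, had 512, 479.6 and 456 CPM in co-culture, against 264, 271 and 263 CPM with LPS alone (log2 fold change 0.86, SE 0.06, edgeR adjusted p 1.38e-06; trend-corrected 0.34), with no overlap. Ddit3, encoding the transcription factor CHOP, had 59.9, 41.6 and 41.8 CPM in co-culture, against 12.3, 12.5 and 12.4 CPM with LPS alone. All co-culture libraries were far above the LPS libraries, replicate 1 highest (log2 fold change 1.95, SE 0.14, edgeR adjusted p 2.25e-06; trend-corrected 1.66). Chac1, a glutathione-degrading enzyme, had 93.1, 62.4 and 60.4 CPM in co-culture, against 9.23, 8.37 and 7.39 CPM with LPS alone, 8.68 times higher (log2 fold change 3.12, SE 0.18, edgeR adjusted p 6.7e-07; trend-corrected 2.36).

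Trib3, a pseudokinase partner of CHOP, averaged 58.98 ± 12.8 CPM in co-culture, against 8.98 ± 0.133 CPM in the LPS group (SD, n = 3 each), and Ppp1r15a, the GADD34 subunit that restores translation, 128 ± 16.5 CPM in co-culture, against 23.8 ± 1.4 CPM in the LPS group. They were 6.57 and 5.36 times higher in co-culture (trend-corrected 4.25 and 4.02 times). Ddit4, an mTORC1 inhibitor, was 8.6 times higher (trend-corrected 5.25), the stress regulator Nupr1 4.51 times (3.65) and the mTORC1 inhibitor Sesn2 3.16 times (2.43). The ATF family members Atf3 and Atf5 were 2.69 and 1.83 times higher, and 1.92 and 1.13 times after trend correction. Ppp1r15b, the constitutive relative of GADD34, had 115, 134 and 138 CPM in co-culture, against 201, 195 and 196 CPM with LPS alone, and was the gene that fell (log2 fold change -0.62, SE 0.07, edgeR adjusted p 3.04e-05). Eif2s1, encoding the PERK substrate eIF2 alpha, was 0.15 by TMM (edgeR adjusted p 0.0294) and -0.02 with library totals. Its call was also lost without the expression filter (edgeR adjusted p 0.0542) and when any library other than co-culture replicate 1 was left out (edgeR adjusted p 0.0555 to 0.118), while the trend-corrected value was 0.60 (edgeR adjusted p 3.81e-07). ATF4 is also known to be made under amino acid shortage and other stresses, and gene counts hold no measure of PERK activity.

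**Figure D5:**
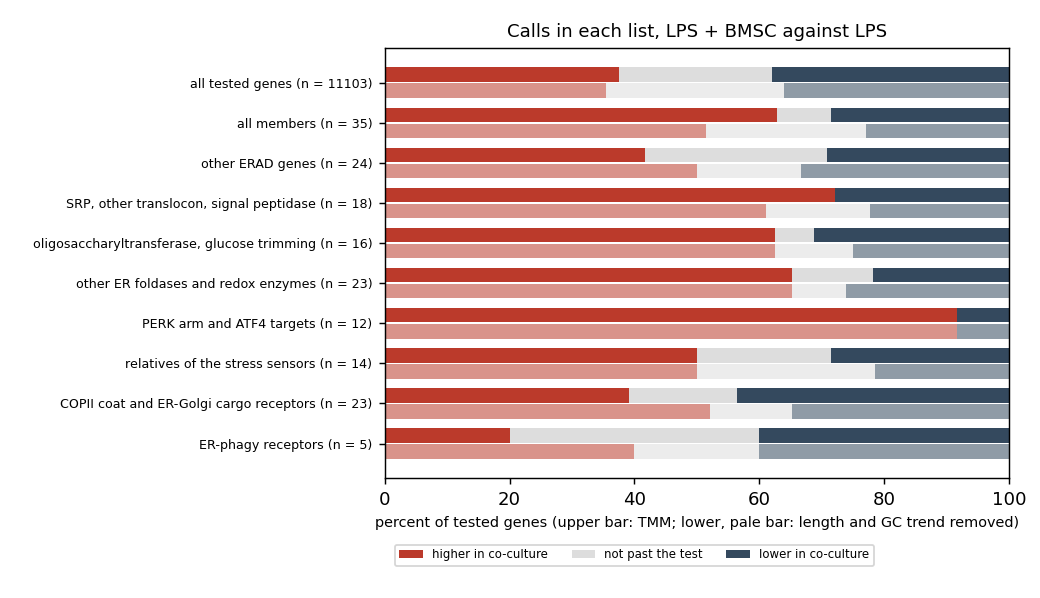
Percent of tested genes higher, not called and lower in co-culture for all tested genes, the members and 8 further lists (upper bar, TMM; lower pale bar, length and GC trend removed). In the list of PERK effectors and ATF4 targets 91.7% were higher by both, against 37.5% (TMM) and 35.4% (trend-corrected) of all tested genes.

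Beyond the members, ERAD genes gave 10 higher (41.7%), 7 lower (29.2%) and 7 not called of 24 (median 0.07), or 12 higher and 8 lower after trend correction. The TMM shares of all tested genes were 37.5% and 38.0%. Aup1, which recruits a ubiquitin-conjugating enzyme, and Tmub1, a membrane protein with a ubiquitin-like domain, rose (1.82 and 1.96 times; trend-corrected 1.36 and 1.22), whereas Edem3, a mannosidase relative of Edem1, had 18.3 ± 4.28 CPM in co-culture, against 62.2 ± 1.29 CPM in the LPS group, 3.4 times lower, and the deubiquitinase Yod1 was 2.51 times lower (trend-corrected 2.48 and 1.65). Other foldases and redox enzymes gave 15 higher (65.2%) and 5 lower (21.7%) of 23 (median 0.52), against 37.5% and 38.0% of all tested genes. The prolyl isomerases Fkbp11 and Fkbp2 were 2.98 and 2.26 times higher (trend-corrected 2.23 and 1.29), the membrane thioredoxin Tmx4 was 2.58 times lower and Fkbp14, near 1 CPM, 2.14 times lower (trend-corrected 1.55 and 1.79). Of 16 genes for oligosaccharyltransferase and glucose trimming, 10 were higher (62.5%) and 5 lower (31.2%), against 37.5% and 38.0% of all tested genes. The list median was 0.40. The rises were led by the glucosidase II subunit Prkcsh (2.32 times) and the transferase subunit Dad1 (2.03 times). The glycoprotein folding sensor Uggt1 (-0.33) and the catalytic subunit Stt3a (-0.30) were lower by TMM and higher after trend correction (0.14 and 0.42).

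Signal recognition particle, other translocon and signal peptidase genes gave 13 higher (72.2%) and 5 lower (27.8%) of 18, against 37.5% and 38.0% of all tested genes. Their median was 0.43 by TMM and 0.52 after trend correction. The SEC61 gamma gene Sec61g rose 2.21 times and the TRAP delta gene Ssr4 1.95 times, with trend-corrected log2 fold changes of 1.10 and 0.69. The second alpha gene Sec61a2 was 2.45 times and the signal peptidase subunit Spcs3 1.37 times lower (trend-corrected 2.15 and 1.12 times). Relatives of the sensors gave 7 higher and 4 lower of 14 (median 0.29): Traf2, the IRE1 adaptor, and Creb3, an ATF6-like factor, were higher (1.82 and 1.7 times), and Mbtps2, the site-2 protease that cleaves ATF6, was 2.69 times lower (34.6 ± 5.49 CPM in co-culture, against 92.8 ± 3.36 CPM in the LPS group), or 1.57 times after trend correction. Wfs1, an ER membrane protein, was also lower (1.89 times; trend-corrected 2.35). COPII coat and cargo receptor genes gave 9 higher (39.1%) and 10 lower (43.5%) of 23 (median -0.03), close to the shares of all tested genes, and 12 higher and 8 lower after trend correction (median 0.11). By TMM, the cargo receptors Kdelr1 and Lman2 were higher (1.78 and 1.66 times) and the coat genes Sec24d and Sec23a lower (2.24 and 1.71 times). After trend correction the rises were 1.19 and 1.82 times and the falls 2.065 and 1.32 times. Of 5 ER-phagy receptor genes, Tex264 was higher (2.01 times, trend-corrected 1.425). Atl3 and Retreg1 were lower (2.03 and 1.5 times, trend-corrected 1.26 and 1.33).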

How the data were processed

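The authors deposited 1 table with read counts per gene (whole numbers, not normalized) and FPKM for 6 libraries; the submitters' processing notes name HISAT2 2.0.5 and the build mm10, and neither a counting tool nor a strand setting is stated. Per the labels' protocols, RNA was poly(A)-selected, fragmented and primed with random hexamers. Counts were tested with edgeR 4.0.16 (R 4.3.3; quasi-likelihood, robust, TMM scaling, default expression filter, group as the only term), and p-values were Benjamini-Hochberg adjusted over 11103 genes with a threshold of 0.05. The biological coefficient of variation was 7.05%. CPM values are TMM-scaled, and levels per length are the deposited FPKM. Trend correction used per-library offsets from natural splines (5 degrees of freedom) on the table's gene length and the GC content of GENCODE M21 transcripts (known for 99.5% of genes). Gene positions are from M21 (GRCm38). Alternatives were RLE size factors, library totals, DESeq2 1.42.0, limma 3.58.1 on log2(FPKM + 1) and log2(FPKM + 0.1) for mean FPKM of at least 1, no filter, a minimum of 10 counts per library, a replicate block and leaving out each library. Scripts were tested on simulated data. Standard errors include the spread between replicates; the floor of 3 reads covers counting error only, since reads carry no molecular identifiers. In addition, 1 row holding no values was not analysed here. The members, lists and tests were chosen with earlier results of these data known. Named pathway genes outside the members are the 2 largest rises and falls of each list and the listed genes with too few reads to test. The whole PERK and ATF4 list was added after member values were seen.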

Additional observations from a re-analysis of the deposited data

How the results depend on the processing

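RLE size factors, DESeq2 and a minimum of 10 counts in every library left all 35 member calls as they were. The member median of 0.34 moved to 0.16 with library totals and to 0.16 on log2(FPKM + 1) and on log2(FPKM + 0.1), and to 0.20 with trend correction; leaving out 1 library gave 0.30 to 0.37, with 19 to 23 members higher and 10 to 11 lower. Values turned sign with library totals, on log2(FPKM + 1) and on log2(FPKM + 0.1) for Hyou1 (-0.013, -0.013 and -0.014), Pdia4 (-0.038, -0.039 and -0.039), Xbp1 (-0.071, -0.07 and -0.072), Ssr1 (-0.172, -0.169 and -0.173) and Eif2s1 (-0.024, -0.026 and -0.026). Trend correction turned Dnajc10 (0.015), Sdf2l1 (-0.289), Pdia4 (-0.07), Xbp1 (-0.187), Uggt1 (0.141) and Stt3a (0.421). Ssr1 was -0.003 without the expression filter and -0.012 to 0.03 when libraries were left out. The causes were not tested.

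The labels do not say whether libraries with the same replicate number were run as pairs. The deviations of same-numbered libraries correlated at -0.042, -0.024 and 0.04, and those of differently numbered libraries at -0.097 to 0.1. With 3 libraries per group, such correlations cannot settle whether the libraries were paired. With a replicate block, 21 members were higher and 10 lower (median 0.335), and only Pdia4 lost its call among the members. With the block and trend correction together, the median was 0.201, with 18 higher and 7 lower, Canx no longer passing (-0.113, edgeR adjusted p 0.0549), and the same 6 genes turned sign: Dnajc10 (0.015), Sdf2l1 (-0.289), Pdia4 (-0.07), Xbp1 (-0.188), Uggt1 (0.141) and Stt3a (0.421). Eif2ak3, the tested member with the fewest reads, had the widest standard error among the members (0.14).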

Other observations

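The deposited table also annotates a KEGG pathway of protein processing in the ER, a list taken up after the data had been seen. Of its 149 tested genes, 73 were higher and 53 lower in co-culture (median log2 fold change 0.13), and 77 and 45 after trend correction (median 0.14). It holds 30 of the members; without them, 55 of 120 tested genes were higher and 44 lower (median 0.11), or 61 and 39 after trend correction (median 0.12). The share higher was 45.8% by TMM and 50.8% after trend correction, beside 37.5% and 35.4% of all tested genes.

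Among listed genes with too few reads to test, the KDEL receptor gene Kdelr3, which returns ER residents from the Golgi, had 13, 5 and 15 reads in co-culture and 6, 8 and 3 reads with LPS alone, with overlapping ranges. The peptidyl-prolyl isomerase gene Fkbp7 had 7, 10 and 5 reads in co-culture and 8, 15 and 27 reads with LPS alone. Serpinh1, the collagen chaperone HSP47 that stromal cells express strongly, had 2, 1 and 1 reads in co-culture and none with LPS alone, under the floor of 3 reads in every library. The signal recognition particle gene Srp54a had 2, 1 and 5 reads in co-culture and 13, 7 and 13 with LPS alone. For Uggt2, a relative of Uggt1, the reads were 4, 3 and 2 in co-culture and 6, 16 and 10 with LPS alone. Fkbp9, Ern2 and Ccpg1 had at most 1 read in any library.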
